A study of Mus musculus with 7 samples.

Results

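Levels of 10 long noncoding RNAs, grouped as abundant in the brain, were followed in the ventromedial hypothalamus of mice. The part used was its ventrolateral subdivision (VMHvl), where many neurons carry estrogen receptors. The members are Meg3, Rian, Mirg, Malat1, Neat1, Miat, Snhg11, Peg13, Kcnq1ot1 and Gas5. They were chosen by symbol, and all 10 were found among the 48321 genes of the count tables. The mice were females without ovaries. A subcutaneous dose of 1 µg estradiol benzoate (EB), a slowly released estrogen, went to 4 of them and vehicle alone to the other 3, and the VMHvl was cut out by hand 4 hours afterwards. Each library is total RNA of a single mouse. All mice were of mixed background with 129/Sv ancestry and descended from a line with a floxed Esr1 allele. The labels read here state neither their Esr1 genotype nor their age.

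Long noncoding RNAs are transcripts that are not read into protein, and several act in the nucleus, where they scaffold nuclear bodies or silence neighbouring genes on the same chromosome. Others are hosts: snoRNAs or miRNAs are cut from their introns or exons, and the spliced remainder is often unstable. Meg3, Rian, Mirg, Peg13 and Kcnq1ot1 are imprinted, meaning that they are read mainly from the copy inherited from a single parent. Whether any of these RNAs differed 4 hours after estrogen is the comparison made here.

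Libraries held 21037303 to 33302293 counts. Mitochondrially encoded, haemoglobin and rRNA genes took 10.3% to 29.5% of them, most in vehicle 1. Vehicle 1 also stood apart in replicate comparisons, with a chi-square per degree of freedom over genes of 156 and 166 against the other vehicle libraries, where the remaining pairs within a group gave 17.02 to 102. Its mural cell and fibroblast markers stood 1.20 log2 units over the 7-library mean. All 10 markers of VMH neurons had counts in the libraries, with a summed level of 1407 to 1690 CPM. CPM are counts divided by library size, here after TMM scaling, which corrects for library composition, and multiplied to a common total. Slc17a6 (434 to 715 CPM) and Dlk1 (390 to 651 CPM) held much of that sum. Nr5a1 (0.927 to 3.51 CPM), Sox14 (0.823 to 4.31) and Fezf2 (0.919 to 4.00) of the same list were low. Markers of arcuate neurons summed to 268 to 339 CPM. The VMH sum is therefore no measure of how much of the tissue was VMH. Pgr, a textbook estrogen target, stood at 82.2 ± 6.70 CPM in the 3 vehicle mice and 207 ± 17.6 CPM in the 4 EB mice (mean ± SD), a log2 change of 1.34.

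None of the 10 RNAs was called changed with EB. In the quasi-likelihood fit of edgeR, 0 of 10 members had a Benjamini-Hochberg adjusted p under 0.05, where 169 of all 18387 tested genes did (0.919%). DESeq2 and limma-voom also called 0 of the 10, against 1.96% and 0.816% of the genes each tested. At an unadjusted p under 0.05 there were 2, Snhg11 and Miat, both higher with EB, where 8.54% of tested genes were below that value and 4.69% were so and higher with EB. In all 10 members the groups overlapped. They did not overlap in 9.1% of tested genes, so 0 of 10 is near that share. These shares are also the background for the gene lists below, where 0 called in a short list is near them. The estimated log2 change was positive in 7 and negative in 3 members, with a median of 0.11 beside −0.01 over all tested genes. The 95% intervals of the changes differed in width by several times. For Rian the interval ran from a 0.977-fold to a 1.20-fold level, and for Neat1 from 0.285-fold to 1.41-fold, so that for Neat1 a large fall and a moderate rise are both within it.

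**Figure D1:**
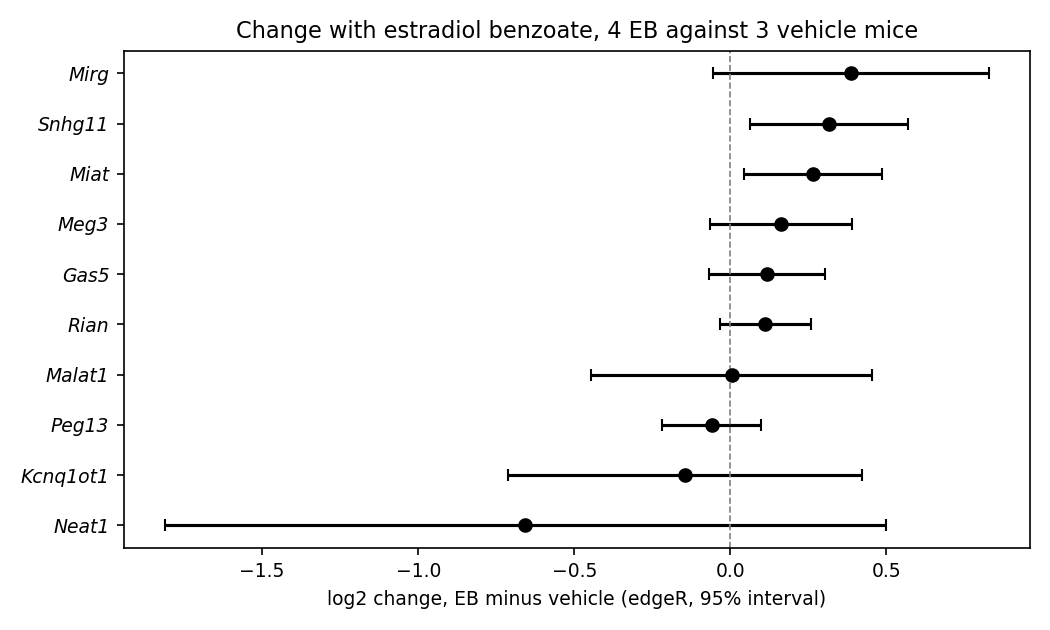
Log2 change of each RNA, EB minus vehicle, from edgeR with its 95% interval (x axis), for 4 EB and 3 vehicle mice, with genes on the y axis. The intervals of Snhg11 and Miat lie above 0 before adjustment for the number of genes, that of Neat1 is the widest, and 0 of 10 pass after adjustment.

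Because reads rise with transcript length, levels of different genes were compared as CPM per kilobase of exon, with exons joined over all annotated transcripts. Malat1 had the highest level per length, 269 ± 46.6 CPM per kb with vehicle (SD, n = 3) and 270 ± 55.4 with EB (SD, n = 4). Snhg11 followed at 114 ± 14.5 and 142 ± 20.4, then Meg3 at 50.7 ± 4.05 and 56.7 ± 8.81, Peg13 at 35.9 ± 3.65 and 34.4 ± 1.10, and Rian at 25.6 ± 1.24 and 27.6 ± 2.03 CPM per kb. Gas5 stood at 13.8 ± 1.15 and 15.0 ± 0.784, and Miat at 3.72 ± 0.435 and 4.47 ± 0.275 CPM per kb. For these 7 genes the lowest vehicle mouse of each lay above the highest vehicle mouse of the next in the order. Mirg (2.29 ± 0.735 CPM per kb with vehicle), Neat1 (1.43 ± 0.646) and Kcnq1ot1 (1.10 ± 0.277) closed the order, and neighbours among these 3 overlapped in the vehicle mice. The order of means was the same in vehicle and EB down to Mirg, and with EB Kcnq1ot1 (0.997 ± 0.227) stood above Neat1 (0.910 ± 0.488). The exon lengths behind these values run from 3.76 kb for Gas5 to 93.1 kb for Kcnq1ot1 and come from GENCODE, which may differ from the annotation the counts were made with. Joined exons span 3760 of the 4118 bases of Gas5, over 25 transcripts, while Peg13 has 1 transcript. A gene read mainly as a transcript shorter than its joined exons gets too low a level. The order therefore holds for joined exon length only. By mean CPM, not divided by length, Malat1 ranked 19 among the 18387 tested genes. Gas5 ranked 3552, Miat 4591, Neat1 6117 and Mirg 6769, so not every member was abundant here.

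**Figure D2:**
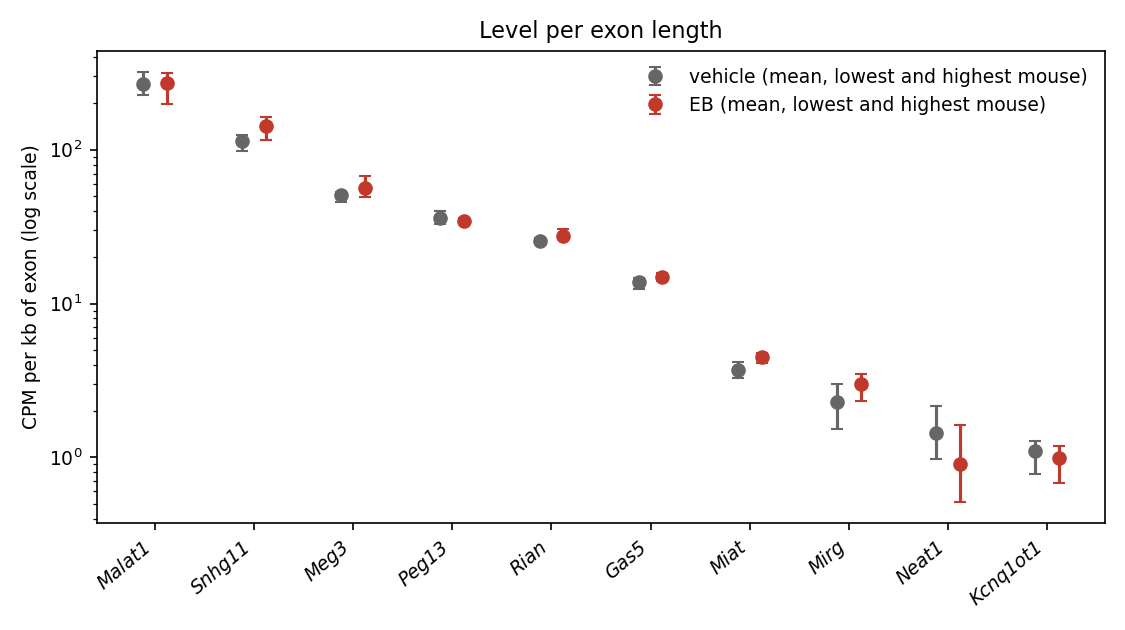
Level per exon length (CPM per kb, log scale, y axis) of the 10 RNAs (x axis); points are group means and bars run from the lowest to the highest mouse. Malat1 stands at 269 and 270 CPM per kb and Kcnq1ot1 at 1.10 and 0.997.

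Meg3, Rian and Mirg lie in this order on the plus strand of chromosome 12, inside the imprinted Dlk1-Dio3 domain, where they are read from the maternal copy. In the mm10 build Meg3 covers chr12:109541001-109571726, Rian chr12:109603940-109661716 and Mirg chr12:109729764-109749460. Rian is a host of box C/D snoRNAs, and Mirg lies across a dense cluster of miRNA hairpins. RefSeq places 35 mature miRNAs in these 3 genes, 3 in Meg3, 6 in Rian and 26 in Mirg, with 34 different seeds, the bases 2 to 8 that pair with target RNAs. The mature forms from the Rian and Mirg hairpins with the most counts are shown here, with miR-496a-5p because it is the member that shares a seed with another, miR-453; capitals mark the seed.
miR-1188-5p: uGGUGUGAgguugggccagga
miR-341-5p: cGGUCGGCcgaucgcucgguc
miR-370-3p: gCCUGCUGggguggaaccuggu
miR-453: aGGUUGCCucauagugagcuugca
miR-496a-5p: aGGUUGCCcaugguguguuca
The first 3 lie in Rian, with miR-1188-5p at chr12:109611841-109611861, miR-341-5p at chr12:109611521-109611541 and miR-370-3p at chr12:109618305-109618326. The last 2 lie in Mirg, at chr12:109735669-109735692 and chr12:109739132-109739152 on the plus strand, and share the seed GGUUGCC. These libraries count reads on the hairpins and not the mature miRNAs.

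Meg3 had 832, 961 and 956 CPM in vehicle 1 to 3 and 908, 1223, 1088 and 887 CPM in EB 1 to 4. EB 2 and EB 3 lay above all vehicle mice, while EB 1 and EB 4 lay between them. The log2 change was 0.16 ± 0.10 (SE; 95% interval −0.06 to 0.39, adjusted p = 0.763 by edgeR). Rian had 441, 486 and 471 CPM with vehicle and 498, 557, 477 and 482 CPM with EB, a log2 change of 0.11 ± 0.07 (adjusted p = 0.732). Its groups overlapped through vehicle 2, which stood above EB 3 and EB 4. Mirg had 11.2, 21.9 and 16.998 CPM with vehicle and 23.0, 25.5, 16.98 and 21.7 CPM with EB. Vehicle 1 was the low library, and the log2 change of 0.39 ± 0.20 (−0.05 to 0.83, adjusted p = 0.669) moved to 0.16 without vehicle 1 and 0.63 without vehicle 2. Meg3 moved to 0.06 without EB 2 and to 0.09 without vehicle 1, and Rian to 0.06 and 0.07 without the same libraries.

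**Figure D3:**
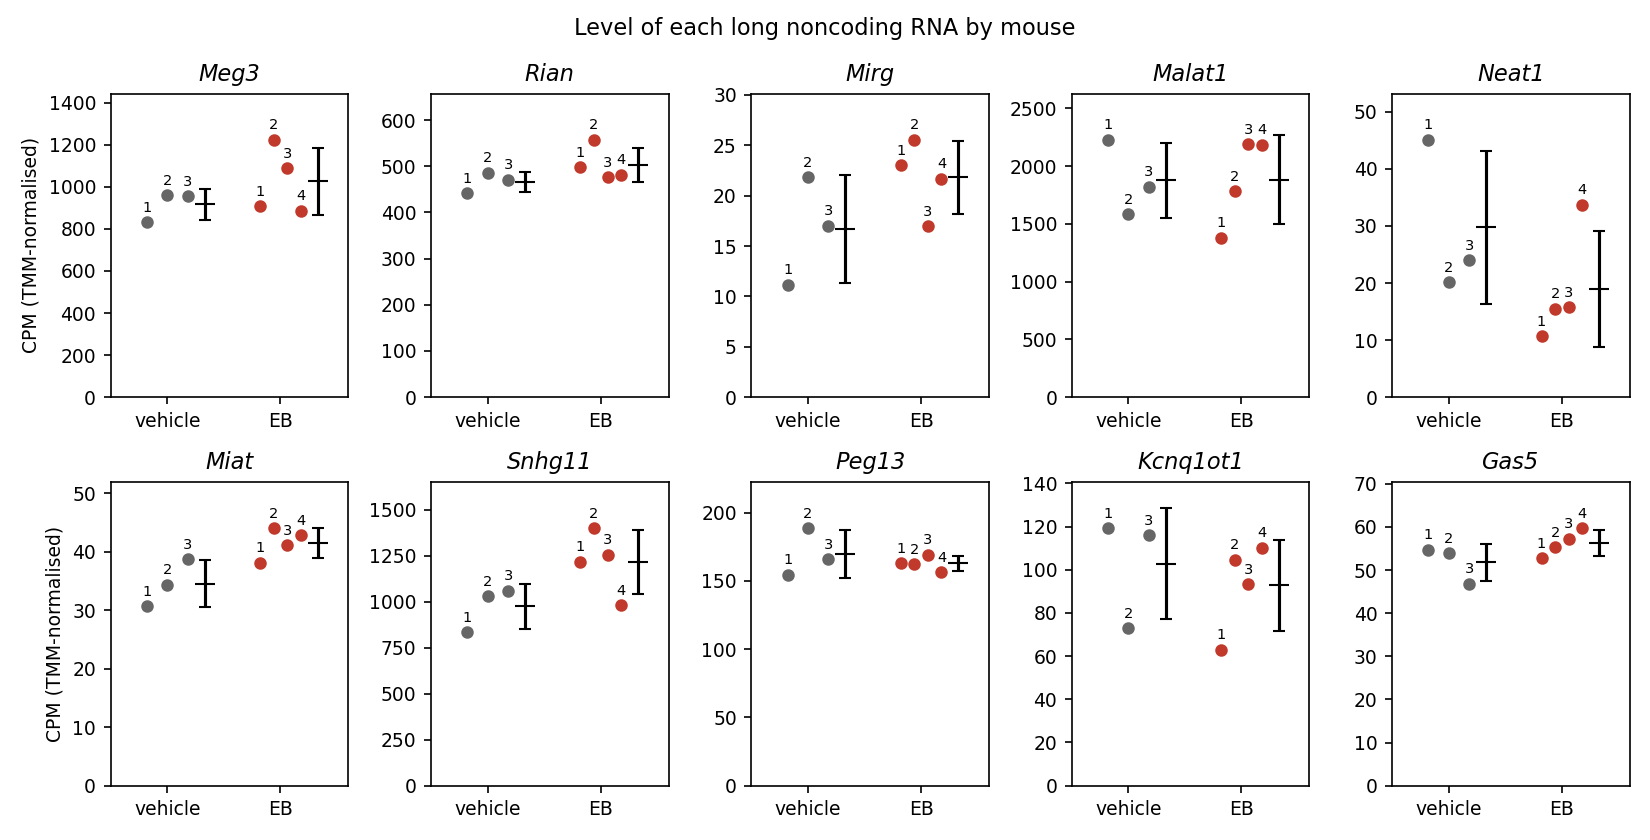
Level of each RNA (CPM, y axis from 0) in every vehicle and EB mouse (x axis); numbers name the mouse and black bars give the mean ± SD. In all 10 panels the groups overlap; Neat1 runs from 10.7 CPM in EB 1 to 45.1 CPM in vehicle 1.

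Small RNA genes inside these hosts have rows of their own in the count tables. Of 29 miRNA and snoRNA rows whose position overlaps an annotated exon of a member, 5 had any count and the 29 summed to 49 counts over the 7 libraries. The 16 rows outside those exons summed to 2032, of which 1829 came from 9 rows inside Rian. The 9 snoRNA rows of Gas5 all overlap its exons as joined over 25 transcripts, and all had 0 counts. Those joined exons cover 3760 of its 4118 bases, so a row may still lie in an intron of some transcripts. How the counting treated reads on overlapping features is not stated in the labels read here. Gm26945, an unnamed gene within Rian, held a further 2602 counts. The snoRNA gene Gm24564 inside Rian held 897 counts, at 3.17 to 6.53 CPM, with a log2 change of 0.08 (adjusted p = 0.974 by edgeR), and the snoRNA gene Gm23600 held 362. Mir1188 held 228 counts (log2 0.13, adjusted p = 0.980) and Mir341 133 (0.28, adjusted p = 0.953). Mir370 and Mir453 held 45 and 67 counts over the 7 libraries and were below the filter for testing. Counts this small leave the hairpin rows with SEs of 0.52 to 0.54 on the log2 scale, so a doubling would hardly be separated from no change.

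The Meg3 promoter window of RefSeq, chr12:109540746-109541045 on the plus strand (GRCm38.p6, the patched form of mm10), is shown because Meg3 is the first gene of the cluster and the most abundant of the 3 per length. Capitals mark GGTCA, a single arm of the estrogen response element, and TGACGTCA, the cAMP response element.
Meg3 promoter: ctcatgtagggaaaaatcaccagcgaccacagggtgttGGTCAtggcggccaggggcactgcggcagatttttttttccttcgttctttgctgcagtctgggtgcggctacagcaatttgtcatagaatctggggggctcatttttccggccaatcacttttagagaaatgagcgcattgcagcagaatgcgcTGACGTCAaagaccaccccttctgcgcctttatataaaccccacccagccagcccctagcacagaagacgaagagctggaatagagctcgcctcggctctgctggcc
Windows run from 250 bases before to 50 bases after a start and were found for 8 of the 10 members, 10 windows in all. Not all lie at the gene starts given here. The Mirg window, chr12:109734731-109735030, lies inside Mirg and covers the Mir668 and Mir485 hairpins. The other Meg3 window, chr12:109545148-109545447, lies inside Meg3. All 10 windows were searched on both strands for the full palindromic estrogen response element and for its single arm GGTCA or TGACC. TGACGTCA was also searched for, a motif chosen after the windows were read. A full element holds both arms, and GGTCA and TGACGTCA did not overlap in the Meg3 window. The full element was in 0 of the 10 windows and in 0.07% of 32851 background windows. The background left out a single chromosome, which carries none of the members. The single arm was in 5 of 10, where 40.5% of background windows hold it. TGACGTCA was in 2 of 10, a Meg3 and a Gas5 window, and in 1.79% of background windows.

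Across the 7 mice Rian and Mirg varied together. On log2(CPM + 0.5) Pearson's r was 0.85 (two-sided exact permutation p = 0.000794, adjusted p = 0.00317 over the 4 pairs tested) and Spearman's rho 0.96 (exact permutation p = 0.00278, adjusted 0.0111). Without the 2 libraries farthest from the median of Rian, EB 2 and vehicle 1, r was 0.88 over 5 mice, and it was 0.78 for deviations from the group means. For Meg3 r was 0.79 with Rian (exact permutation p = 0.0627, adjusted 0.0947; rho 0.54, p = 0.236, adjusted 0.302) and 0.51 with Mirg (exact permutation p = 0.193, adjusted 0.193; rho 0.46, p = 0.302, adjusted 0.302), and without EB 2 and vehicle 1 these became −0.46 and −0.73, so both rest on those libraries. For deviations from the group means they were 0.73 and 0.36. All pairs share library depth and scaling, and with library totals in place of TMM the Rian and Mirg correlation missed the threshold (r = 0.90, adjusted p = 0.0762). The pairs were chosen by position, and pairs on different chromosomes were not tested, so a relation particular to neighbours is not shown. Miat and Snhg11, on other chromosomes, also had vehicle 1 lowest and EB 2 highest. No batch is given by the labels, so no value within batches can be had.

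**Figure D4:**
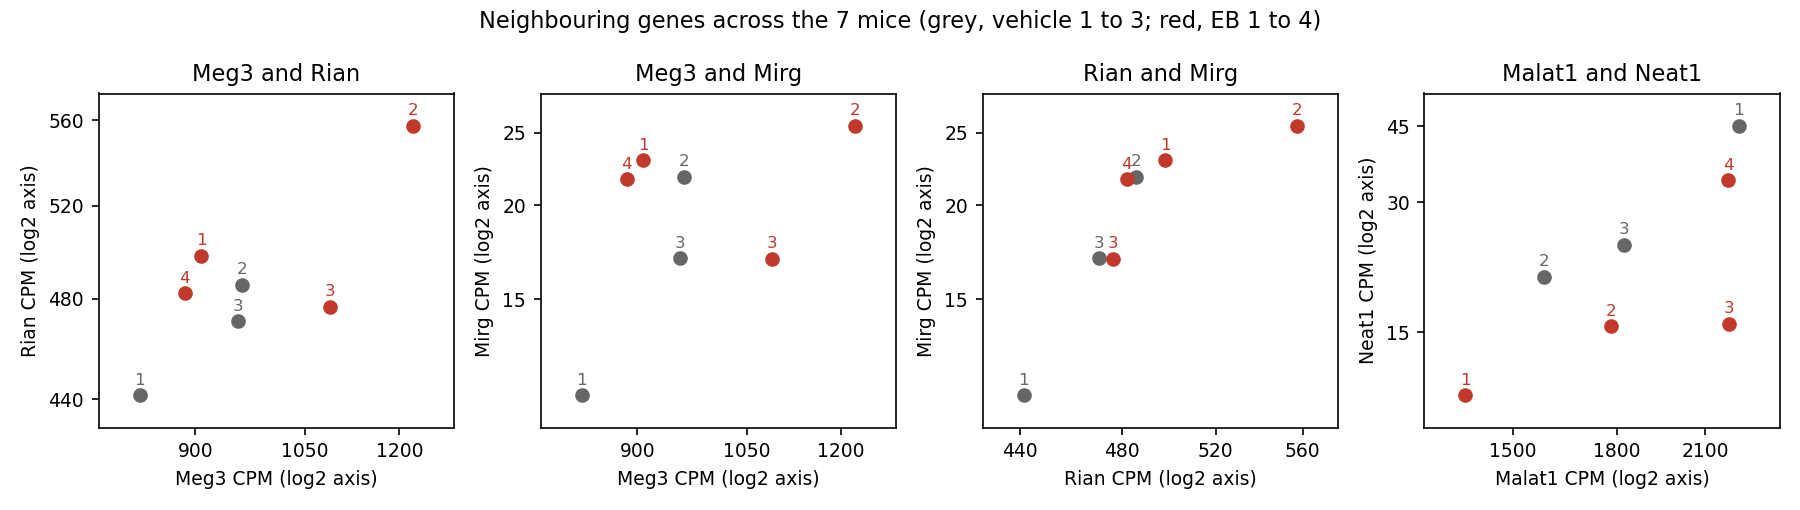
CPM of neighbouring gene pairs in each mouse (both axes log2; grey, vehicle 1 to 3; red, EB 1 to 4). Rian and Mirg lie along a line (r = 0.85), and vehicle 1 and EB 2 are the end points in the 3 panels of the chromosome 12 genes.

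Other genes of the Dlk1-Dio3 domain are given beside the background. Of 7 tested genes around the cluster edgeR, DESeq2 and limma-voom each called 0. That is near the 0.919%, 1.96% and 0.816% called over the genes each tested. In edgeR 0 were at an unadjusted p under 0.05, where 8.54% of tested genes were, and the median log2 change was 0.00. B830012L14Rik, a noncoding transcript of the domain, had a log2 change of 0.30 (adjusted p = 0.785). Dio3, the thyroid hormone-inactivating deiodinase at the far end, was low in both groups, at 0.488 ± 0.310 CPM in vehicle and 0.242 ± 0.141 in EB mice (mean ± SD; log2 −1.03, adjusted p = 0.802).

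Malat1 and Neat1 are neighbours on the minus strand of chromosome 19, at chr19:5795690-5802672 and chr19:5824708-5845478. Malat1 gathers in nuclear speckles, which store splicing factors, and Neat1 is the scaffold of paraspeckles, bodies that retain RNA and RNA-binding proteins. Malat1 had 2228, 1585 and 1822 CPM with vehicle and 1380.4, 1781, 2190.1 and 2186 CPM with EB. The EB range enclosed all but the highest vehicle mouse, and the log2 change was 0.00 ± 0.19 (−0.45 to 0.45, adjusted p = 0.997). Its sign turned with the library left out, from −0.10 to 0.14.

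Neat1 varied most of the 10. It had 45.1, 20.2 and 24.0 CPM with vehicle and 10.7, 15.5, 15.7 and 33.7 CPM with EB, a range of 4.21-fold, from 328 to 1160 counts. EB 1, EB 2 and EB 3 lay below all vehicle mice and EB 4 above 2 of the 3. The log2 change was −0.66 ± 0.47 (−1.81 to 0.50, adjusted p = 0.816). Without EB 4 it was −1.09 (adjusted p = 0.296), and without vehicle 1 it was −0.23 (adjusted p = 0.932). The within-group SD of Neat1 was 0.65 log2 units, larger than that of 99.3% of tested genes with a mean of at least 10 CPM, whose median was 0.13.

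Markers of mural cells and fibroblasts are given beside Neat1. All 14 listed markers were tested, 14 had a negative log2 change (median −0.32), 0 were called by edgeR, 0 were at an unadjusted p under 0.05, and DESeq2 and limma-voom called 0. The direction rests on vehicle 1, without which the median was 0.38, and it ran down to −0.80 without EB 4. Their summed level was 192 to 733 CPM with vehicle and 205 to 442 CPM with EB, with none at 0 in all libraries. The mean of the list stood 1.20 and 0.58 log2 units above the 7-library mean in vehicle 1 and EB 4, the 2 libraries highest in Neat1, and 0.72 below it in EB 1, the lowest. The other libraries followed less closely: in EB 3 the list stood 0.17 above its mean where Neat1 was at −0.42, and in vehicle 2 the list was at −0.62 where Neat1 was at −0.07. Endothelial markers stood at 0.44 and 0.17 log2 units from their mean in vehicle 1 and EB 4, −0.23 in EB 1 and −0.18 in EB 3. Astrocyte markers were at 0.14 and 0.26 in vehicle 1 and EB 4, −0.09 in EB 1 and −0.31 in EB 3. In each library both lists had the sign of Neat1, so a likeness to Neat1 is not particular to mural cells and fibroblasts. No relation of Neat1 with a marker list was tested. Ahnak, a large scaffold protein, was closest to Neat1 in pattern among the 8651 candidates with a mean of at least 10 CPM, with a root-mean-square difference of 0.16 log2 units over the 7 mice. Of 12 endothelial markers 10 were negative, and 0 were called by edgeR, 2 by DESeq2 and 0 by limma-voom. In edgeR 4 were at an unadjusted p under 0.05, Flt1, Tek and Abcb1a lower and Kdr higher. Over the genes each tested, edgeR called 0.919%, DESeq2 1.96% and limma-voom 0.816%, and 8.54% were under that unadjusted value. The DESeq2 count and the unadjusted count of this list lie above those shares, and no test of the list was made. With the mural cell and fibroblast mean as a covariate the log2 change of Neat1 was −0.43 (adjusted p = 0.377 by edgeR). Its unadjusted p by edgeR was 0.0247 with that covariate and 0.214 without it. Both belong to the difference between EB and vehicle and do not test the relation with the list. Endothelial and astrocyte means were not fitted as covariates. In bulk tissue fewer cells of a type and less RNA per cell cannot be told apart.

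Malat1 and Neat1 had a Pearson's r of 0.71 over the 7 mice (exact permutation p = 0.0710, adjusted 0.0947; rho 0.71, p = 0.0881, adjusted 0.176), and 0.26 without EB 1 and vehicle 1, so the relation rests on those libraries. For deviations from the group means r was 0.82. Of the 7 tested protein-coding neighbours none passed with edgeR, DESeq2 or limma-voom, and 1, Dpf2, was at an unadjusted p under 0.05. Dpf2, a chromatin remodelling subunit, had 0.24 for its log2 change (adjusted p = 0.413) and Ltbp3, a TGF-beta binding protein, −0.30 (adjusted p = 0.699).

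Protein components of the nuclear bodies were set beside their RNAs. Of 23 paraspeckle proteins, all tested, edgeR, DESeq2 and limma-voom each called 0, with 0 at an unadjusted p under 0.05 in edgeR, with log2 changes from −0.11 to 0.16 and a median of 0.02. Ewsr1, an RNA-binding protein of the FET family, had 0.16 (adjusted p = 0.616). Of 17 nuclear speckle proteins 1 rose, 0 fell and 16 were not called, with 13 positive and 4 negative log2 changes and a median of 0.12. At an unadjusted p under 0.05 there were 4, all higher with EB: Srsf7, and Srrm1 (0.25, adjusted p = 0.0971), Srsf5 (0.28, 0.154) and Srrm2 (0.20, 0.164), the last 3 named after their values were seen. Over all tested genes 8.54% were under that value and 4.69% were so and higher with EB. Srsf7, an SR splicing factor, rose from 108 ± 8.97 CPM in the 3 vehicle mice to 142 ± 10.7 CPM in the 4 EB mice (mean ± SD), a log2 change of 0.39 ± 0.08 (adjusted p = 0.0387). That call ended by limma-voom (adjusted p = 0.0592), with library totals (0.175), with an oligodendrocyte covariate (0.0524), and without vehicle 1 (0.0607), vehicle 3 (0.207), EB 1 (0.153), EB 3 (0.0753) or EB 4 (0.0937). DESeq2 called 3 of the 17 and limma-voom 0. Over the genes each tested, edgeR called 0.919%, DESeq2 1.96% and limma-voom 0.816%.

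Miat, a nuclear RNA of neurons also known as Gomafu, lies on the minus strand at chr5:112213228-112229395. It had 30.6, 34.3 and 38.7 CPM with vehicle and 38.1, 44.0, 41.1 and 42.8 CPM with EB. EB 2, EB 3 and EB 4 lay above all vehicle mice, and EB 1 lay just under vehicle 3. The log2 change was 0.27 ± 0.10 (0.04 to 0.49, unadjusted p = 0.0220, adjusted p = 0.434), and it was 0.18 without vehicle 1 and 0.35 without vehicle 3. DESeq2 gave an adjusted p of 0.348 and limma-voom 0.421.

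Snhg11, a snoRNA host gene enriched in neurons, lies on the plus strand at chr2:158375638-158386145. GENCODE M21 types it as protein-coding, so the label of a noncoding RNA is not that of this annotation. It had 834, 1031 and 1060.4 CPM with vehicle and 1219, 1400, 1257 and 980.4 CPM with EB. EB 1, EB 2 and EB 3 lay above all vehicle mice, and EB 4 lay between vehicle 1 and vehicle 2. The log2 change was 0.32 ± 0.11 (0.06 to 0.57, unadjusted p = 0.0188, adjusted p = 0.411), the smallest unadjusted p of the 10. Without EB 4 it was 0.41 (adjusted p = 0.0865), and without vehicle 1 it was 0.21 (adjusted p = 0.603). DESeq2 gave an adjusted p of 0.135. The promoter windows of Snhg11 (chr2:158375463-158375762, plus strand) and Miat (chr5:112228899-112229198, minus strand) are shown because these are the members at an unadjusted p under 0.05; the single arm found, in Miat, is in capitals.
Snhg11 promoter: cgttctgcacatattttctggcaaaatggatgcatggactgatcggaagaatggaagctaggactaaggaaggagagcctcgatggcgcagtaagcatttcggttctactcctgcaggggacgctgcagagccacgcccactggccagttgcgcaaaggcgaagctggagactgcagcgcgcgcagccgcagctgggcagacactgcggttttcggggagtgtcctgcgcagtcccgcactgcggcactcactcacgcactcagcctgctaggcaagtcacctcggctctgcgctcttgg
Miat promoter: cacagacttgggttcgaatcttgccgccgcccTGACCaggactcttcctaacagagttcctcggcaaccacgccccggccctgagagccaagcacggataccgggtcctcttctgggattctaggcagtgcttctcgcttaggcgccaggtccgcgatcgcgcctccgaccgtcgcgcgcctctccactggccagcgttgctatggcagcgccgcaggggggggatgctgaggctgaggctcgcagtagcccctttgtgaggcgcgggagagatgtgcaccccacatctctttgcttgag

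Gas5 is a snoRNA host whose spliced RNA is degraded by nonsense-mediated decay and can bind the glucocorticoid receptor. It lies on the plus strand at chr1:161034422-161038539. Its first bases overlap the start of Zbtb37 on the other strand (chr1:161002922-161034849), and reads within that short overlap cannot be told apart unless strand was used. Gas5 had 54.7, 53.9 and 46.8 CPM with vehicle and 52.7, 55.3, 57.3 and 59.7 CPM with EB. EB 2, EB 3 and EB 4 lay above all vehicle mice and EB 1 below vehicle 1 and vehicle 2. The log2 change was 0.12 ± 0.09 (−0.07 to 0.30, adjusted p = 0.803), and it was 0.05 without vehicle 3. Of 18 other tested snoRNA host genes edgeR and limma-voom called 0 and DESeq2 called 1, with 2 at an unadjusted p under 0.05 in edgeR, with a median of 0.00. Nop56, a core protein of box C/D snoRNPs and itself a host, stood at 46.2 and 57.7 CPM on average, a log2 difference of 0.32 ± 0.08 (adjusted p = 0.127, and 0.0355 by DESeq2) and Snhg6 one of 0.51 (adjusted p = 0.573). Of 14 nonsense-mediated decay factors edgeR, DESeq2 and limma-voom each called 0, with 1, Upf2, at an unadjusted p under 0.05 in edgeR, with a median of 0.08.

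Peg13 and Kcnq1ot1 are read from the paternal copy. Peg13, at chr15:72805600-72810324, lies in an intron of Trappc9, a gene of vesicle transport, in the imprinted domain of the potassium channel Kcnk9. It had 155, 188 and 166 CPM with vehicle and 163, 162, 169 and 157 CPM with EB, the smallest range of the 10 at 1.22-fold. All 4 EB mice lay between the lowest and the highest vehicle mouse, and the log2 change was −0.06 ± 0.07 (−0.22 to 0.10, adjusted p = 0.919), 0.02 without vehicle 2. Trappc9, read from the same strand, had 0.19 (adjusted p = 0.583), and edgeR, DESeq2 and limma-voom each called 0 of the 5 tested genes of the domain, with Trappc9 alone at an unadjusted p under 0.05 in edgeR.

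Kcnq1ot1, antisense to Kcnq1 at chr7:143203458-143296549, silences neighbouring genes on the paternal chromosome 7. It had 119, 73.0 and 116 CPM with vehicle and 62.9, 105, 93.4 and 110.1 CPM with EB. EB 1 was below all vehicle mice and the other 3 EB mice between vehicle 2 and vehicle 3, with a log2 change of −0.15 ± 0.24 (−0.71 to 0.42, adjusted p = 0.949). Without EB 1 it was 0.0025, and with the mural cell and fibroblast covariate −0.04. Kcnq1 itself held 8 counts over all 7 libraries. Of 15 listed genes around Kcnq1ot1 7 were tested and edgeR, DESeq2 and limma-voom each called 0, with 0 at an unadjusted p under 0.05 in edgeR, with a median log2 change of −0.08. Nap1l4, a histone chaperone, had −0.11 (adjusted p = 0.810), and Th, tyrosine hydroxylase of dopamine synthesis, 0.36 (adjusted p = 0.699).

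The members fell into different patterns over the mice. Vehicle 1 was the lowest library in 6 of 10 members, Meg3, Rian, Mirg, Miat, Snhg11 and Peg13, and the highest in 3, Malat1, Neat1 and Kcnq1ot1. EB 1 was the lowest in those 3, and EB 2 the highest in 5 of the 6 named first. Neuron markers stood 0.11 log2 units below the 7-library mean in vehicle 1, and endothelial markers 0.44 above it. Pituitary markers, a check on the cut, were highest in EB 4 at a summed 66.3 CPM, against 21.4 to 38.6 CPM elsewhere. Pomc, also listed for arcuate neurons, held 37.0 CPM of it in EB 4 and 35.8 CPM in EB 1. Cga stood at 18.4 CPM in EB 4 and 0.126 to 6.14 CPM elsewhere, and Tshb at 9.14 CPM and 2.42 to 6.39 CPM. The part of these markers in the patterns was not tested. Without vehicle 1 the log2 changes were 0.09 for Meg3, 0.07 for Rian, 0.16 for Mirg, 0.18 for Miat, 0.21 for Snhg11, −0.13 for Peg13, 0.15 for Gas5, 0.14 for Malat1, −0.23 for Neat1 and −0.03 for Kcnq1ot1, with 0 of 10 called.

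**Figure D5:**
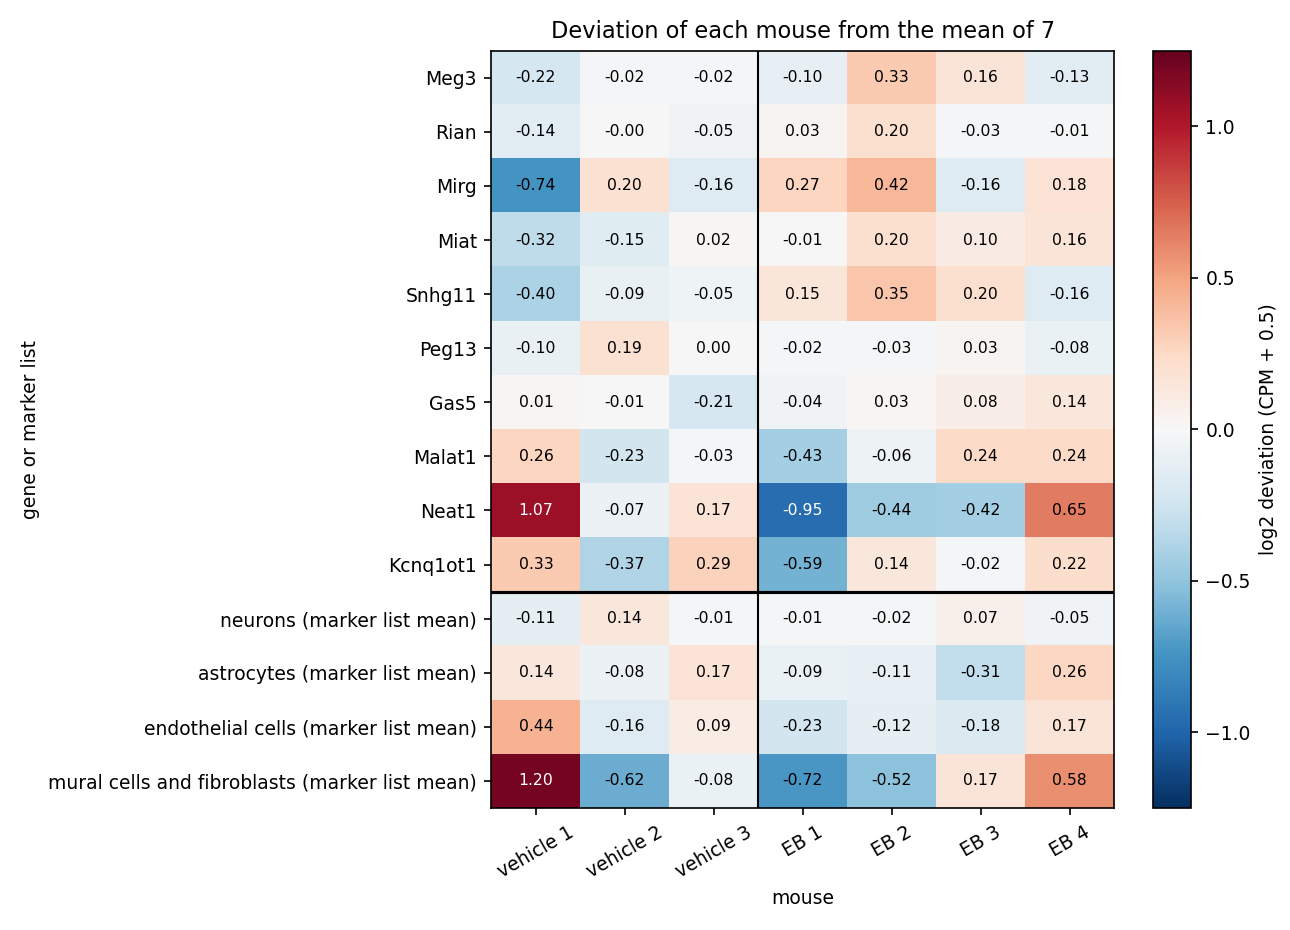
Deviation of each mouse (x axis) from the mean of the 7, in log2(CPM + 0.5), for the 10 RNAs and for the means of 4 marker lists (y axis); red is above and blue below the mean. Vehicle 1 is lowest in Meg3, Rian, Mirg, Miat, Snhg11 and Peg13 and highest in Malat1, Neat1 and Kcnq1ot1, where EB 1 is lowest.

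Within-group spread also set the members apart. Kcnq1ot1 (0.38 log2 units), Mirg (0.35) and Malat1 (0.29) had larger SDs than 97.6%, 97.1% and 94.1% of tested genes with a mean of at least 10 CPM. Rian (0.09), Gas5 (0.10) and Peg13 (0.10) were below the median of those genes, with 23.0%, 26.8% and 27.4% having a smaller SD. Genes closest in pattern over the 7 mice, by root-mean-square difference of centred log2 values, were Sod2 for Peg13 (0.02 log2 units), Eif6 for Rian (0.03), Exoc7 for Gas5 (0.04), Rbck1 for Miat (0.04), Gle1 for Meg3 (0.06), Atad3a for Snhg11 (0.07), Napepld for Malat1 (0.08), Sh3pxd2a for Kcnq1ot1 (0.11) and Nup210 for Mirg (0.13). They are the nearest of 8651 candidates and are given as a description.

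Together the 10 RNAs held 0.457 ± 0.0507% of all counts with vehicle (SD, n = 3) and 0.511 ± 0.0745% with EB (SD, n = 4), a difference of 0.0536 percentage points (two-sided exact permutation p = 0.400 over 35 splits). The difference was 0.0288 without vehicle 1 (exact permutation p = 0.800) and 0.0905 without EB 1 (exact permutation p = 0.100, the smallest that 3 mice against 3 allow). Malat1, Meg3 and Snhg11 made up most of it, 0.371 ± 0.0404% and 0.420 ± 0.0665% of all counts. Meg3, Rian and Mirg summed to 0.139 ± 0.0248% and 0.157 ± 0.0213% (exact permutation p = 0.343), a difference of 0.0186 percentage points that was 0.00436 without vehicle 1 and 0.0104 without EB 2, and Malat1 with Neat1 to 0.186 ± 0.0193% and 0.195 ± 0.0520% (exact permutation p = 0.857). The 10 RNAs held 0.400% in EB 1, with a 95% Wilson interval of 0.398% to 0.403% that covers counting error only. Leaving mitochondrially encoded, haemoglobin and rRNA genes out of the total gave 0.557 ± 0.0318% and 0.608 ± 0.0645% (exact permutation p = 0.286).

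Other long noncoding RNAs of the brain were also listed. Of 35 listed, 27 were tested, and edgeR, DESeq2 and limma-voom each called 0. Over the genes each tested they called 0.919%, 1.96% and 0.816%, so 0 of 27 is near the background. In edgeR 3 were at an unadjusted p under 0.05, where 8.54% of tested genes were. There were 13 positive and 14 negative log2 changes, with a median of −0.02. Dubr stood at 8.84 ± 1.49 CPM in vehicle and 5.74 ± 0.337 in EB mice (mean ± SD), a log2 change of −0.62 ± 0.18 (adjusted p = 0.196). Mir9-3hg, the host of a miR-9 hairpin, had a log2 change of 0.64 ± 0.23 (adjusted p = 0.367).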

How the data were processed

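Raw counts per gene were deposited by the authors for 7 libraries, as whole numbers for 48321 genes with no normalization. The tools that the submitters' processing notes name are HISAT2, an aligner, HTSeq, a read counter, and DESeq2, and the build is mm10. No label read here states versions, annotation, strand or the treatment of overlapping features. Per the labels' protocols, 15 ng of total RNA went into a Trio kit (Tecan/NuGEN). Replicate numbers name the mice of a group in deposited order. Each library is a separate mouse, and no pair within a group differed by less than sampling noise.

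Genes were kept by filterByExpr (minimum count 10; 18387 of 31222 genes with any count), given TMM factors and fitted in edgeR 4.0.16 (estimateDisp, robust glmQLFit, glmQLFTest) in R 4.3.3 with no covariate. Adjusted p-values are Benjamini-Hochberg over all tested genes. The SE is the absolute log2 change over the square root of F, and intervals use the test's degrees of freedom. Correlations and shares used SciPy 1.17.1. Alternatives were DESeq2 1.42.0, limma-voom (limma 3.58.1), 3 scalings, 2 filters, removal of gene classes from scaling, 2 marker covariates and each library left out. Positions and exon lengths are from GENCODE M21 (GRCm38, the mm10 build), and sequences from RefSeq (GRCm38.p6). The members and lists were chosen with earlier results of these data known. Named genes were the 10 members, called genes or otherwise the 2 with the smallest p of each non-marker list, and the gene closest in pattern to each member.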

Additional observations from a re-analysis of the deposited data

Results flagged for a closer look

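The summed share of the 10 RNAs was 0.400% of counts in EB 1, far below the other 3 EB libraries, which ran from 0.540% to 0.563%. The gap to the nearest of them was 0.860 of the group's range, above Dixon's 95% critical value for 4 samples. Chance flags about 1 in 20 such groups, and 13 were looked at, the 10 members and 3 summed shares. EB 1 also had the largest share of mitochondrially encoded, haemoglobin and rRNA genes of the EB libraries, 22.8%, and without these genes in the total its share was 0.519%, against 0.602% to 0.657% in the other 3. Their part in the low share was not tested further.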

How the results depend on the processing

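No paired analysis was possible because mice carry no number that both groups share. Under each of the 18 alternatives 0 of 10 members were called. Of 180 member values 8 changed sign, all of Malat1, Peg13 or Kcnq1ot1. Their main log2 changes were 0.0047, −0.06 and −0.15. Malat1 turned to −0.012 by limma-voom and −0.00031 with upper quartile scaling, and ran from −0.10 to 0.14 with 1 library left out. Leaving out 1 library moved Peg13 between −0.13 and 0.022 and Kcnq1ot1 between −0.34 and 0.0025. DESeq2 called 351 genes in all against 169 by edgeR, and 94 to 159 were called with 1 library left out, fewest without vehicle 3 (94) and EB 1 (103). With 1 library left out the difference in share ran from −0.00665 to 0.0313 percentage points for Malat1 and Neat1, 0.0288 to 0.0905 for the 10 members and 0.00436 to 0.0272 for Meg3, Rian and Mirg. With library totals only, Meg3 and Rian passed the threshold (r = 0.91, adjusted p = 0.0397) and Rian and Mirg did not (r = 0.90, adjusted p = 0.0762). With 1 library left out r ran from 0.39 to 0.91 for Meg3 and Rian, 0.16 to 0.64 for Meg3 and Mirg, 0.79 to 0.97 for Rian and Mirg, and 0.50 to 0.92 for Malat1 and Neat1. Without EB 3 the adjusted p of Meg3 with Rian, Meg3 with Mirg and Malat1 with Neat1 fell to 0.0472, 0.0472 and 0.0278. List medians moved by more than 1 SD in 12 of 342 cases. The median of the Malat1 and Neat1 neighbours was 0.11 with the oligodendrocyte covariate, and that of pituitary markers, with 4 genes tested, was −0.98 by limma-voom and −1.18 with that covariate. With 1 library left out medians ran from −0.057 to 0.15 for Malat1 and Neat1 neighbours, 0.078 to 0.17 for nuclear speckle proteins, 0.031 to 0.16 for decay factors, −0.036 to 0.082 for other long noncoding RNAs, −0.18 to −0.047 for microglia, 0.053 to 0.20 for VMH neurons, −0.90 to 0.48 for pituitary markers and −0.80 to 0.38 for mural cells and fibroblasts, whose median was 0.06 with their own mean as covariate. The cause was not tested. The lowest libraries held 287 counts of Mirg and 328 of Neat1, and the small RNA rows held far fewer.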
